A study of Mus musculus with 9 samples.

Results

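The perilipins (Plin1, Plin2, Plin3, Plin4 and Plin5) and the CIDE proteins (Cidea, Cideb and Cidec) coat lipid droplets, the organelles in which cells store neutral fat. These 8 genes were taken by name from 32285 identifiers in the gene count tables, and all 8 were among the 17173 genes tested. The cells were primary wild-type mouse stromal vascular fraction (SVF) cells, a mixed culture that includes preadipocytes. They were prepared from the subcutaneous white adipose tissue of newborn mice. Of 9 RNA-seq libraries, 3 came from undifferentiated cells, 3 from cells differentiated for 6 days with the DMSO vehicle, and 3 from cells differentiated for 6 days with 25 µM mizoribine (MIZ), an inhibitor of inosine monophosphate dehydrogenase in purine synthesis. Both differentiated groups received insulin, dexamethasone and IBMX, followed by insulin, troglitazone, rosiglitazone and triiodothyronine, so both had agonists of the nuclear receptor PPARγ in their medium. Library totals ranged from 28760721 to 55288455 counts. Vehicle replicate 1, the shallowest, stood apart from the other vehicle libraries (chi-square per degree of freedom over genes of 26.1 and 42.0, against 8.18 between those). Without it the log2 fold changes of MIZ against vehicle were -2.88 for Plin1, -2.38 for Plin2, -0.12 for Plin3, -3.20 for Plin4, -5.29 for Plin5, -3.03 for Cideb and -3.13 for Cidec, all on the same side of the threshold as with it, and Cidea then missed the filter on low counts. The study's methods plated the cells of individual animals separately and call the libraries of a group biological replicates, but the labels do not tie a library to an animal, so p-values measure the spread between these libraries.

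As background, perilipins and CIDEs have distinct jobs on the droplet. PLIN1 covers the large droplets of adipocytes, holding back lipases until hormonal stimulation releases the lipase co-activator ABHD5. PLIN2 and PLIN3 are found in most cell types, PLIN2 on small droplets and PLIN3 moving between cytosol and nascent droplets. PLIN4 marks newly forming droplets in adipocytes, and PLIN5 couples droplets to mitochondria in oxidative tissues. CIDEC and CIDEA gather where droplets touch and pass lipid from the smaller to the larger, CIDEC in white fat and CIDEA in brown and beige fat, while CIDEB is best known from hepatocytes and lipoprotein loading. PPARγ is a known activator of Plin1, Cidec and other genes of this group in adipocytes.

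The bases before the most upstream RefSeq transcription start are shown for 3 members that were nearly silent before differentiation (Plin4, Plin5 and Cidec). The same is shown for 2 that were already expressed (Plin2 and Plin3). They are RefSeq sequences of the build GRCm38.p6, written 5′ to 3′ along the gene, with CpG dinucleotides in capitals and any base inside a GENCODE exon left off the end.
Plin2, chr4:86670061-86670309, minus strand: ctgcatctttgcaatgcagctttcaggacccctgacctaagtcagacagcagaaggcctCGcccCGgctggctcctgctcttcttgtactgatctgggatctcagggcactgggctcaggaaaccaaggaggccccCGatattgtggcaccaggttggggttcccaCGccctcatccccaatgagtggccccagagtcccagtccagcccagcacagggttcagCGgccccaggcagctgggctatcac
Plin3, chr17:56290512-56290761, minus strand: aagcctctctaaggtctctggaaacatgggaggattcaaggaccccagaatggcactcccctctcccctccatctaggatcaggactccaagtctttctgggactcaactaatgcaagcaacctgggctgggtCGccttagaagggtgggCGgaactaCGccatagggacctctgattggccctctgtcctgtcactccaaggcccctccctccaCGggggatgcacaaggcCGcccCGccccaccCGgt
Plin4, chr17:56109804-56110032, minus strand: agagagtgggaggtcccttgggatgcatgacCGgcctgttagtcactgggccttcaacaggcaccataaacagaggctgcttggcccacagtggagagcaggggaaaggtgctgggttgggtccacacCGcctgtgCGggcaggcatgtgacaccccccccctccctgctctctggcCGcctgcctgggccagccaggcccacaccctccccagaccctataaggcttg
Plin5, chr17:56117597-56117798, minus strand: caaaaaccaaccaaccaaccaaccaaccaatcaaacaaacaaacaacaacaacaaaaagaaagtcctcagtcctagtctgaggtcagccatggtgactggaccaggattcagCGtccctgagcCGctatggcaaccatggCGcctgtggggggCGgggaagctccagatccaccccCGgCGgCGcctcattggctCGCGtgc
Cidec, chr6:113435761-113436010, minus strand: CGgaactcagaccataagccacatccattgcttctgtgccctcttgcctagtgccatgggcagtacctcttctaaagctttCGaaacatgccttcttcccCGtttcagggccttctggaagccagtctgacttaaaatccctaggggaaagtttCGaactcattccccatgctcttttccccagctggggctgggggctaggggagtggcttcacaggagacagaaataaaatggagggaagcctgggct
Over the full 250-base windows, CpG counts were 6 for Plin2, 7 for Plin3, 6 for Plin4, 11 for Plin5 and 4 for Cidec, against a median of 6 over 32851 promoter windows. Plin1 had 1 CpG, and 7.87% of promoter windows had fewer. The nuclear receptor half-site AGGTCA, searched on both strands, occurred in the Plin2 window at position -218 and in the Plin5 window at -170 from the start, and in 14.0% of all windows. The direct repeat of that half-site with a single-base gap (DR1), searched on both strands, was in none of the windows of the 7 members other than Cidea. It was in only 0.0335% of all windows, so the absence of an exact match here decides nothing. The window of Cidea was not analysed here. CCAAT, also searched on both strands, was in the windows of Plin2, Plin3, Plin4 and Plin5 and in 33.8% of all windows. The Plin4 match, at -18, falls in the bases left off above. The Plin3 window lies inside the GENCODE span of that gene, which begins further upstream than the RefSeq start. The CpG counts of Plin2 and Plin3 lay within the range of the members that were nearly silent. Plin5 and Cidec also have a downstream RefSeq start, whose windows held 14 and 6 CpG and neither AGGTCA nor CCAAT.

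In undifferentiated cells, Plin2 and Plin3 made up almost all perilipin mRNA, and CIDE mRNA was close to absent. Plin2 (ENSMUSG00000028494, chr4:86648386-86670060) stood at 118, 119 and 116 CPM (counts scaled to library size with TMM normalization) and Plin3 (ENSMUSG00000024197, chr17:56277476-56292873) at 88.2, 85.7 and 86.3 CPM. Per kilobase of merged exon, the scale used for comparing genes, Plin2 was at 33.4 and Plin3 at 22.9 CPM per kb. Plin4 followed at 0.330 and Cideb at 0.240 CPM per kb, and these neighbours in the order overlapped between libraries. Plin1 had 25 counts over the 3 libraries, Plin5 2, Cidea 1 and Cidec 0.

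Differentiation with vehicle raised 7 of the 8 genes and lowered Plin3. Over all 17173 genes, 77.7% passed the test in this comparison (edgeR quasi-likelihood test, Benjamini-Hochberg adjusted p under 0.05), 36.2% as higher and 41.5% as lower, so passing was common and the sizes of the changes carry more than the count. Cidea passed the filter on low counts through the vehicle libraries alone, and a gene of that kind has to differ. Plin5 and Cidec passed it through the vehicle and MIZ libraries alone, so the same holds for them against undifferentiated cells.

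Plin1 (ENSMUSG00000030546, chr7:79720218-79732903), the adipocyte gatekeeper of lipolysis, went from 0.273, 0.135 and 0.119 CPM to 1569, 1580 and 1623 CPM with vehicle. With MIZ it reached 187, 222 and 245 CPM. The 3 groups did not overlap, and MIZ libraries lay far nearer to vehicle than to undifferentiated cells on a log scale. The log2 fold change was 13.17 (SE 0.183) for vehicle against undifferentiated, -2.87 (SE 0.101) for MIZ against vehicle, with an edgeR adjusted p of 7.9e-10, and 10.30 (SE 0.180) for MIZ against undifferentiated.

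Cidec (ENSMUSG00000030278, chr6:113424634-113435760), the droplet fusion factor of white fat, had no count in any undifferentiated library and 1640, 1708 and 1766 CPM with vehicle. MIZ libraries held 165, 196 and 237 CPM. Against a floor of 3 counts over the undifferentiated group, Cidec was at least 84080-fold higher with vehicle and at least 9623-fold higher with MIZ. MIZ lay below vehicle by a log2 fold change of -3.10 (SE 0.124, edgeR adjusted p 3.1e-08). Cidec was thus present in every MIZ library, at levels between those of the other groups.

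Plin4 (ENSMUSG00000002831, chr17:56100591-56109803) began at 1.48, 1.93 and 2.30 CPM before differentiation. It reached 1118, 1159 and 1114 CPM in the vehicle libraries but 102, 124 and 146 CPM in the MIZ libraries. Its log2 fold change was 9.19 (SE 0.180) on differentiation with vehicle and -3.19 (SE 0.129, edgeR adjusted p 2.4e-09) for MIZ against vehicle. The pattern was that of Plin1 and Cidec, with a trace of transcript at the outset.

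Plin2, the perilipin of most non-adipocyte cells, rose from its undifferentiated level to 1200, 1266 and 1226 CPM with vehicle and only to 233, 241 and 245 CPM with MIZ. Its log2 fold change was 3.39 (SE 0.0477) on differentiation, -2.36 (SE 0.0456, edgeR adjusted p 2.5e-11) for MIZ against vehicle and 1.03 (SE 0.0442) for MIZ against undifferentiated cells. MIZ-treated cells therefore had 2.04-fold the undifferentiated level where vehicle cells had 10.5-fold.

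Plin5 (ENSMUSG00000011305, chr17:56111601-56117596), the perilipin of oxidative tissues, lost far more of its level with MIZ than its neighbour Plin4. Before differentiation it had 0, 0.045 and 0 CPM. The vehicle libraries held 64.3, 65.4 and 63.5 CPM and the MIZ libraries 1.18, 1.90 and 1.98 CPM. The log2 fold change of MIZ against vehicle was -5.28 (SE 0.154, edgeR adjusted p 2.0e-10), a 38.8-fold lower level. From 2 counts in undifferentiated cells, the ratio of vehicle to undifferentiated levels was 4740 (95% counting interval 1312 to 39144), and that of MIZ was 121 (33.1 to 1007). These intervals cover counting error only.

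Cidea (ENSMUSG00000024526, chr18:67343604-67367785), the CIDE protein of brown and beige adipocytes, was above 1 count over a group only with vehicle. The vehicle libraries held 107, 119 and 130 CPM, a sum of 14229 counts. The undifferentiated libraries held 1 count in all and the MIZ libraries 1 count in all. The vehicle level was 13817 times the MIZ level, with a 95% counting interval of 2480 to 545791 (edgeR adjusted p 1.8e-11). No fold can be given between MIZ and undifferentiated cells, where the edgeR adjusted p was 0.887. In a count chosen after its values were seen, 4 of 9064 genes with at least 10 CPM in vehicle had at most 3 counts over the undifferentiated and over the MIZ libraries. They were Cidea, Ucp1 (the uncoupling protein of thermogenic fat, 60.3 CPM with vehicle and 2 counts with MIZ), Gm47593 and Gm47595, an adjoining pair of predicted genes.

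All 6 brown and beige markers listed passed as lower with MIZ than with vehicle, against 35.1% of all genes tested. Ucp1 passed the filter on low counts through the vehicle libraries alone, as Cidea did, so its call was set by the filter. Otop1 and Dio2, with 14 and 17 counts over the MIZ libraries, also could not have passed the filter without vehicle libraries. Elovl3, a fatty acid elongase of brown and beige fat, stood at 146 CPM with vehicle and 23.8 with MIZ. Kcnk3, a potassium channel gene high in brown fat, stood at 212 and 10.9 CPM, and Cox8b, a respiratory chain subunit, at 82.2 and 0.481 CPM. Otop1 stood at 14.1 and 0.131 CPM and Dio2, which activates thyroid hormone, at 2.36 and 0.142 CPM. With MIZ, 4 of the 6 markers, Ucp1 included, were thus under 1 CPM. Summed over 6 brown and beige markers, levels were 0.0674 to 0.227 CPM in undifferentiated, 515 to 518 in vehicle and 25.3 to 46.8 in MIZ libraries, the last mostly from Elovl3 and Kcnk3.

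Cideb (ENSMUSG00000022219, chr14:55754050-55758458), the hepatocyte member, was scarce everywhere. It had 0.318, 0.427 and 0.324 CPM before differentiation, 0.450, 0.987 and 1.05 CPM in the vehicle libraries and 0.091, 0.136 and 0.148 CPM in the MIZ libraries, from 52, 105 and 14 counts. MIZ lay below both groups, with log2 fold changes of -2.78 (SE 0.401, edgeR adjusted p 8.5e-05) against vehicle and -1.51 (SE 0.446, adjusted p 0.0113) against undifferentiated cells. Without MIZ replicate 1 the latter was -1.30 with an adjusted p of 0.0509. In the GENCODE annotation Cideb shares 1136 of its 1488 exon bases with Nop9 on the opposite strand, and the strand setting of the counting is not given in the sources used here, so its values are uncertain. Nop9 itself did not pass the test in any of the 3 comparisons, with means of 23.3, 24.3 and 23.5 CPM. The sum of 6 hepatocyte markers was 0.0225 to 0.0512 CPM in undifferentiated, 3.86 to 6.60 in vehicle and 2.36 to 3.34 in MIZ libraries. Most of it was Cyp2e1, at 0, 4.39 and 2.66 CPM, while Ttr and Serpina1a had 0 counts in every group. The part of such cells in the Cideb level was not tested.

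Plin3 was the exception among the perilipins. From the undifferentiated level it went to 53.3, 59.8 and 58.8 CPM with vehicle and 59.6, 54.9 and 49.3 CPM with MIZ, and the differentiated groups overlapped. It fell by 0.60 (SE 0.0684, edgeR adjusted p 1.1e-05) on the log2 scale with vehicle and by 0.67 (SE 0.0685, adjusted p 7.3e-06) with MIZ. MIZ and vehicle differed by -0.07 (SE 0.0691, adjusted p 0.377), with an approximate 95% interval of -0.21 to 0.06. With total counts in place of TMM this difference was 0.07 (adjusted p 0.418). Of all genes tested, 9.34% showed this combination of 2 lower calls and no call between MIZ and vehicle.

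Against vehicle, 7 of the 8 genes were thus lower with MIZ, all but Plin3, with the call of Cidea set by the filter. In this comparison 71.0% of all genes passed the test, 35.1% as lower and 35.9% as higher. Against undifferentiated cells 7 of 8 passed, with Plin1, Plin2, Plin4, Plin5 and Cidec higher and Plin3 and Cideb lower. Here the calls of Plin5 and Cidec were set by the filter, and 67.0% of all genes passed, 33.7% as higher and 33.3% as lower. The order undifferentiated, MIZ, vehicle with all 3 steps passing, shown by Plin1, Plin2, Plin4, Plin5 and Cidec, was found for 12.1% of all genes tested. The order of Cideb, with MIZ lowest, was found for 4.59%, and the pattern of Cidea, with no call between MIZ and undifferentiated cells, for 9.71%.

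**Figure D1:**
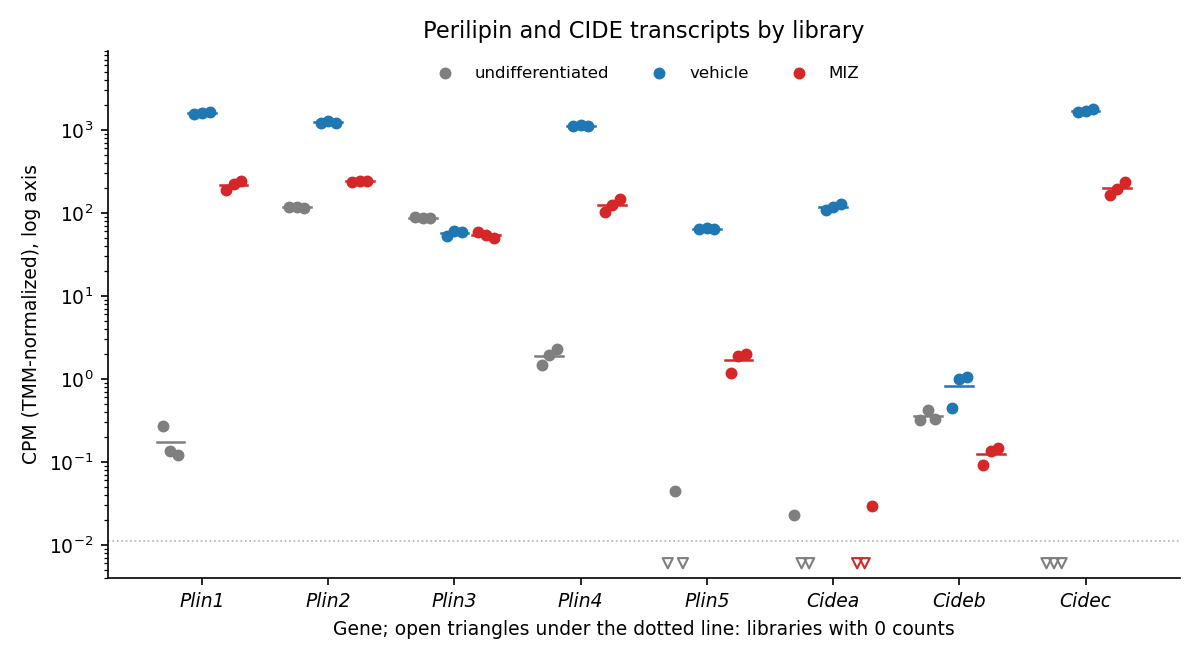
CPM of the 8 genes (log axis) in each of the 9 libraries, with points for libraries, lines for group means where a group had more than 3 counts, and open triangles for libraries with 0 counts. Plin1, Plin4 and Cidec with MIZ lie between 102 and 245 CPM, below every vehicle library, whereas Cidea with MIZ is at 0 in 2 of 3 libraries and Plin3 overlaps between vehicle and MIZ.

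The members fell into classes by how much of the rise seen with vehicle was still there with MIZ, a measure chosen after the values were seen. MIZ-treated cells showed 13.7% of the rise of Plin1 (11.7% to 15.4% over the 3 MIZ libraries), 11.7% of that of Cidec (9.68% to 13.9%), 11.0% of that of Plin2 (10.4% to 11.4%) and 10.8% of that of Plin4 (8.88% to 12.8%). These 4 ranges overlapped, apart from that of Plin1 against that of Plin2, which did not. Plin5 kept 2.60% (1.81% to 3.05%), below all 4, and Cidea 0.00192%. Cideb lay below its mean undifferentiated level in every MIZ library, so that none of its small rise was left (-49.2%, -56.4% to -44.3%). Over the 2950 genes that were more than 2-fold higher with vehicle, the median was 12.2% and the quartiles were 1.89% and 32.8%, so Plin1, Plin2, Plin4 and Cidec sat near the middle of all genes that rose. Plin5 had 26.6% of those genes below it and Cidea 20.3%. The vehicle libraries enter both sides of this measure, so it is a description and was not tested.

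The make-up of the perilipin pool switched on differentiation with vehicle, and with MIZ each share lay between those of the other groups. Per kilobase, Plin2 held 58.9% ± 0.519 (SD, n = 3) and Plin3 40.4% ± 0.542 of the pool in undifferentiated cells. With vehicle, Plin2 held 37.5% ± 0.452, Plin1 36.6% ± 0.719, Plin4 20.9% ± 0.315, Plin5 3.30% ± 0.0550 and Plin3 1.62% ± 0.0735. With MIZ, Plin2 held 45.0% ± 2.08, Plin1 30.8% ± 2.02, Plin4 14.1% ± 1.56, Plin3 9.57% ± 1.57 and Plin5 0.528% ± 0.109. The shares of Plin2 and Plin3 were above vehicle in every MIZ library, and those of Plin1, Plin4 and Plin5 below. Plin2 and Plin1 overlapped between libraries with vehicle, and which of them led depended on the length used, since without division by length Plin1 held 39.1% and Plin2 30.2%. The summed perilipin level was 56.7 ± 0.492 CPM per kb before differentiation, 934 ± 15.3 in vehicle cells and 152 ± 10.6 in MIZ-treated cells.

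The CIDE pool switched as well. What little there was in undifferentiated cells was 97.1% ± 5.02 Cideb, of a summed level of 0.246 CPM per kb. That share rests on 52 counts of Cideb and 1 of Cidea, and Cideb values are uncertain because of the overlap with Nop9. With vehicle the sum was 1025 ± 44.1 CPM per kb, of which Cidec held 89.6% ± 0.554 and Cidea 10.4% ± 0.536. With MIZ the sum was 108 ± 19.6 CPM per kb, of which Cidec held 99.9% ± 0.0150. Cidec at 918 CPM per kb was above Plin2 at 350, Plin1 at 342, Plin4 at 196, Cidea at 106, Plin5 at 30.9, Plin3 at 15.1 and Cideb at 0.556 with vehicle. With MIZ the order was Cidec at 107 CPM per kb, Plin2 at 68.2, Plin1 at 46.9, Plin4 at 21.5, Plin3 at 14.4 and Plin5 at 0.808. The lead of Cidec with MIZ turned with the length used, since with the longest transcript Plin2 was at 127 and Cidec at 116 CPM per kb, and without division by length Plin2 was at 239.6, Plin1 at 218 and Cidec at 199 CPM. Plin3 and Plin5 thus changed places between vehicle and MIZ.

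**Figure D2:**
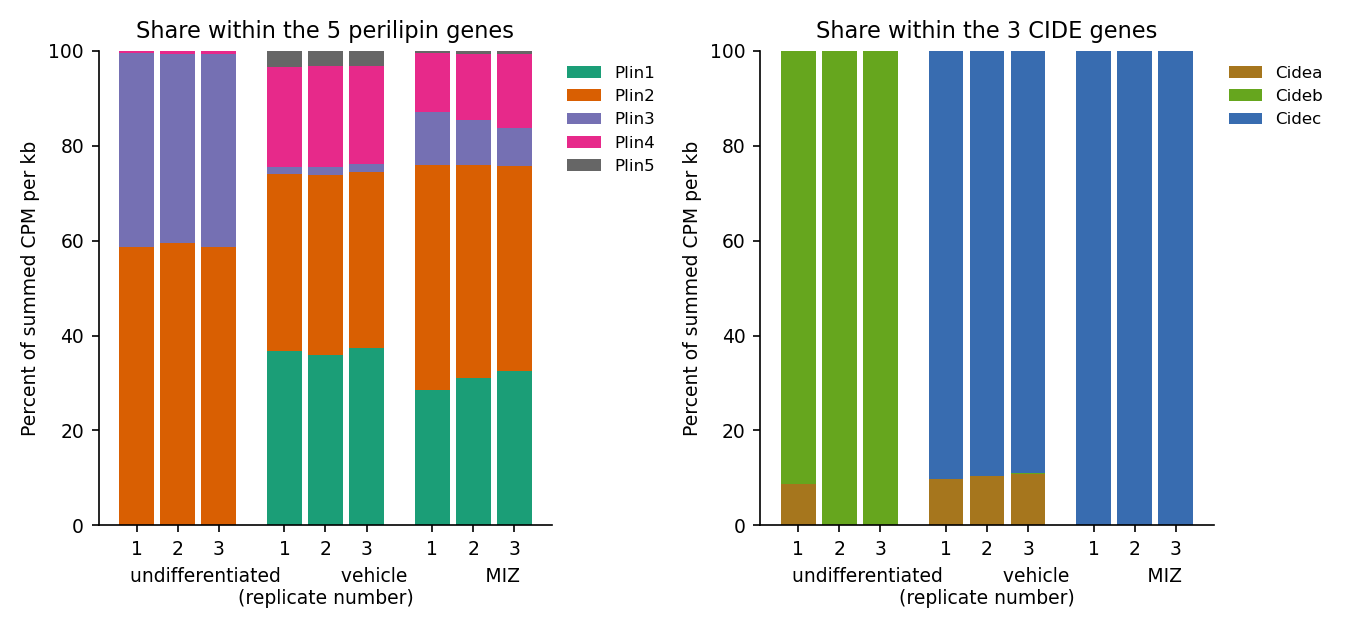
Share of each gene (percent of summed CPM per kb) within the 5 perilipins (left) and the 3 CIDE genes (right), one bar per library. Plin3 holds 1.62% of the perilipin pool on average with vehicle and 9.57% with MIZ, and Cidea is 10.4% of the CIDE pool on average with vehicle; its 8.70% in undifferentiated replicate 1 is a single count.

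The ratio of Plin2 to Plin3 per kilobase summed up the first switch. On the log2 scale it was 0.54 ± 0.0319 (SD, n = 3) before differentiation, 4.53 ± 0.0587 in vehicle cells and 2.25 ± 0.171 in MIZ-treated cells. The ratio of Plin1 to Plin2 was -9.89 ± 0.639, -0.03 ± 0.0451 and -0.55 ± 0.162, a difference of -0.52 between MIZ and vehicle. The log2 ratio to Plin1 differed between MIZ and vehicle by -2.42 for Plin5, -0.32 for Plin4 and -0.23 for Cidec. The groups did not overlap in any of these ratios. An exact permutation test of 3 against 3 libraries cannot go below 0.1, which is the two-sided p of each of them (0.108 adjusted over 13 ratio comparisons). Cideb against Cidec differed by 0.45 with overlapping groups (exact permutation p = 0.3).

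Among the 3 MIZ libraries, replicate 1 was lowest and replicate 3 highest for Plin1, Plin2, Plin4, Plin5, Cideb and Cidec, and Plin3 had the opposite order. Adipoq, an adipocyte hormone gene outside the set, stood at 46.2, 58.5 and 75.0 CPM in the same libraries.

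Markers of other cells moved with the groups. Summed over 6 adipocyte markers, levels were 638 to 727 CPM before differentiation, 7014 to 7412 in vehicle and 1347 to 1474 in MIZ libraries. Lpl made up most of the sum in every group, at means of 673, 5941 and 1235 CPM. Lep, the leptin gene, had only 7 counts with vehicle and 0 in the undifferentiated and MIZ groups, too few to be tested. The sum of 7 macrophage markers was 4848 to 4971 CPM in undifferentiated, 459 to 829 in vehicle and 904 to 1235 in MIZ libraries. Against vehicle only Lyz2 and Adgre1 of these 7 passed as higher with MIZ, Mrc1 was lower (43.5 and 25.1 CPM) and 4 did not pass. The sum of 6 smooth muscle and mural markers was 503 to 602, 144 to 171 and 3614 to 4985 CPM, most of the last from Acta2 at 3622 CPM. Of these 6, 5 passed as higher with MIZ than with vehicle and Cspg4 as lower (63.3 CPM with vehicle and 12.5 with MIZ). Preadipocyte markers summed to 747 to 812, 257 to 316 and 474 to 627 CPM, mostly from Pdgfra (162 CPM with vehicle and 387 with MIZ). Of these 6 markers, Pdgfra and Ly6a passed as higher with MIZ than with vehicle, Cd34 as lower, and 3 did not pass. Endothelial markers summed to 79.1 to 101, 8.43 to 10.3 and 5.02 to 5.41 CPM, and mesothelial markers to at most 16.6 CPM in any library. Skeletal muscle markers summed to 8.11 to 9.11, 2.85 to 3.38 and 37.3 to 64.0 CPM. Most of the last was Acta1 at 46.6 CPM, with Actn3 at 1.32, Mylpf at 0.363, Myh1 at 0.110, Ckm at 0.0355 and Myh4 at 0.0174 CPM. The part of these cells in the perilipin and CIDE levels was not tested, and in bulk RNA fewer adipocytes and less RNA per adipocyte cannot be told apart.

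Other lipid droplet genes were read from 6 lists, chosen with earlier results of these data known. Of 64 genes tested, 52 were lower and 7 higher with MIZ than with vehicle, with a median log2 fold change of -1.69 against 0.02 over all genes. Over all genes tested, 35.1% passed as lower and 35.9% as higher in this comparison. On differentiation with vehicle 51 were higher and 10 lower (median 2.46 against -0.08), where 36.2% of all genes passed as higher and 41.5% as lower. For MIZ against undifferentiated cells 47 were higher and 11 lower (median 0.44 against 0.00), where 33.7% of all genes passed as higher and 33.3% as lower.

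All 9 genes of lipolysis and its cofactors were lower with MIZ than with vehicle. G0s2, an inhibitor of adipose triglyceride lipase, went from 541 to 24.1 CPM (log2 fold change -4.49, SE 0.101). Lipe, hormone-sensitive lipase, went from 1177 to 79.0 CPM (-3.90, SE 0.0802), and Pnpla3 from 36.0 to 2.05 CPM (-4.17, SE 0.230). Abhd5, the co-activator that PLIN1 holds, went from 391 to 78.0 CPM.

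All 8 genes of triglyceride synthesis were lower with MIZ. Mogat1 among them, with 59 counts with vehicle and 0 with MIZ, passed the filter on low counts through the vehicle libraries alone. Its calls between vehicle and the other groups, here and among the 64 genes, were thus set by the filter. The log2 fold change was -4.09 (SE 0.114) for Agpat2, -3.60 (SE 0.0919) for Lpin1 and -2.95 (SE 0.136) for Dgat2, which joins the last fatty acid to diacylglycerol. Of 8 genes of droplet formation 7 were lower and 1 higher. Fitm2 went from 295 to 63.3 CPM and Bscl2, which encodes seipin, from 204 to 62.8 CPM. Lpcat3 went from 244 to 62.6 CPM, while Tmem159, a seipin partner, was higher by 0.40 (SE 0.0666).

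Of 17 other genes of the droplet surface 9 were lower, 5 higher and 3 did not pass, with a median log2 fold change of -0.21. Over all genes tested 71.0% passed in this comparison, 35.1% as lower and 35.9% as higher, with a median of 0.02. The log2 fold change was -4.79 (SE 0.190) for Clstn3, -4.22 (SE 0.0713) for Fabp4, the adipocyte fatty acid carrier, and -3.52 (SE 0.0880) for Aifm2, while Spg20 and Hsd17b11 were higher by 0.82 (SE 0.0496) and 0.36 (SE 0.0795). Of 7 genes of perilipin turnover 4 were lower and 1 higher, a share near that of all genes, with a median of -0.19. Atg7 was at -1.20 (SE 0.0857), March6 at -0.89 (SE 0.0381), Lamp2 at -0.29 (SE 0.0667) and Ubr1 at 0.47 (SE 0.0483) on the log2 scale.

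All 15 regulators tested were lower with MIZ. Pparg stood at 8.12 CPM before differentiation, 174 in vehicle and 21.6 in MIZ cells (log2 fold change of MIZ against vehicle -3.01, SE 0.0945). Ppara, the receptor that drives fatty acid oxidation genes, went from 72.2 to 1.71 CPM (-5.40, SE 0.112). Ppargc1b was at -3.86 (SE 0.113) and Mlxipl at -3.81 (SE 0.111) on the log2 scale.

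**Figure D3:**
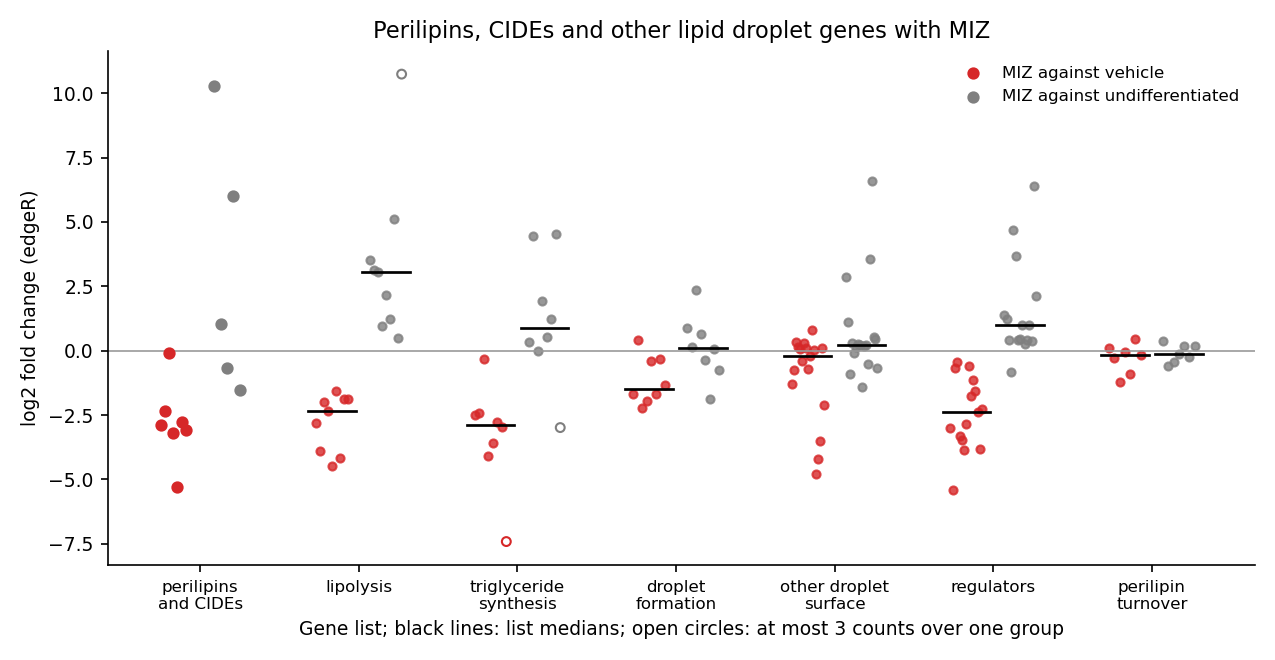
Log2 fold change of MIZ relative to vehicle (red) and to undifferentiated cells (grey) for perilipins and CIDEs and for 6 lists of lipid droplet genes, with a point per gene, a black line at each list's median, and open circles for genes with at most 3 counts over one of the groups, whose fitted values depend on the prior count; members at that level are left out. All genes of lipolysis, triglyceride synthesis and the regulators lie below 0 against vehicle. Against undifferentiated cells 9 of 9, 6 of 8 and 14 of 15 of them passed as higher, as did 33.7% of all genes tested.

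Genes closest to each member over the 9 libraries were ranked by root mean square distance of centred log2 CPM among 11774 genes. Plin1 and Cidec shared Adipoq and Retn, and the other members named had different closest genes. Plin1 was closest to Retn (0.237), Adipoq and Thrsp. Plin2 was closest to Clybl (0.0742), Cluh and Abhd5, and Plin5 to Slc36a2 (0.297), Slc2a4 and Ffar2. Cidec was closest to Adipoq (0.856), Plin1 and Retn, Cidea to Ucp1 (0.631), Gm47593 and Gm47595, and Cideb to Mmp12 (0.258), Impa2 and Dlg2. Distances of genes with libraries at 0 depend on the prior count of 2 added on the log scale.

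Genes next to the members on the chromosome did not all move with them. Plin4 and Plin5 lie 1798 bp apart on the same strand of chromosome 17, with Lrg1 2082 bp beyond Plin5, and Plin3 lies 159880 bp beyond Plin5. Lrg1 had a log2 fold change of -3.57 (SE 0.258) for MIZ against vehicle, so this run of 3 genes passed as lower while Plin3 did not pass. Lrg1 stood at 423, 287 and 180 CPM in the vehicle libraries and 22.5, 26.0 and 26.7 CPM in the MIZ libraries. The sizes differed, with Plin4 at -3.19 and Plin5 at -5.28 on the same scale. Hdgfl2, which overlaps Plin4 by 17 exon bases on the opposite strand, was higher by 0.83 (SE 0.0612) with MIZ.

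Pex11a, a peroxisome gene 3054 bp from Plin1, went from 57.0 to 12.8 CPM with MIZ (-2.15, SE 0.0619), whereas Kif7 on the other side did not pass (0.21, SE 0.108). Cidea was flanked by genes that moved in opposite directions with MIZ, Impa2 at -2.42 (SE 0.129) and Tubb6 at 1.87 (SE 0.119). Rpusd3 and Jagn1 beside Cidec were at -1.70 (SE 0.0932) and -0.78 (SE 0.0577). Haus6 beside Plin2 did not pass (0.15, adjusted p 0.120), and Dennd4c on its other side was at -0.57 (SE 0.0922).

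**Figure D4:**
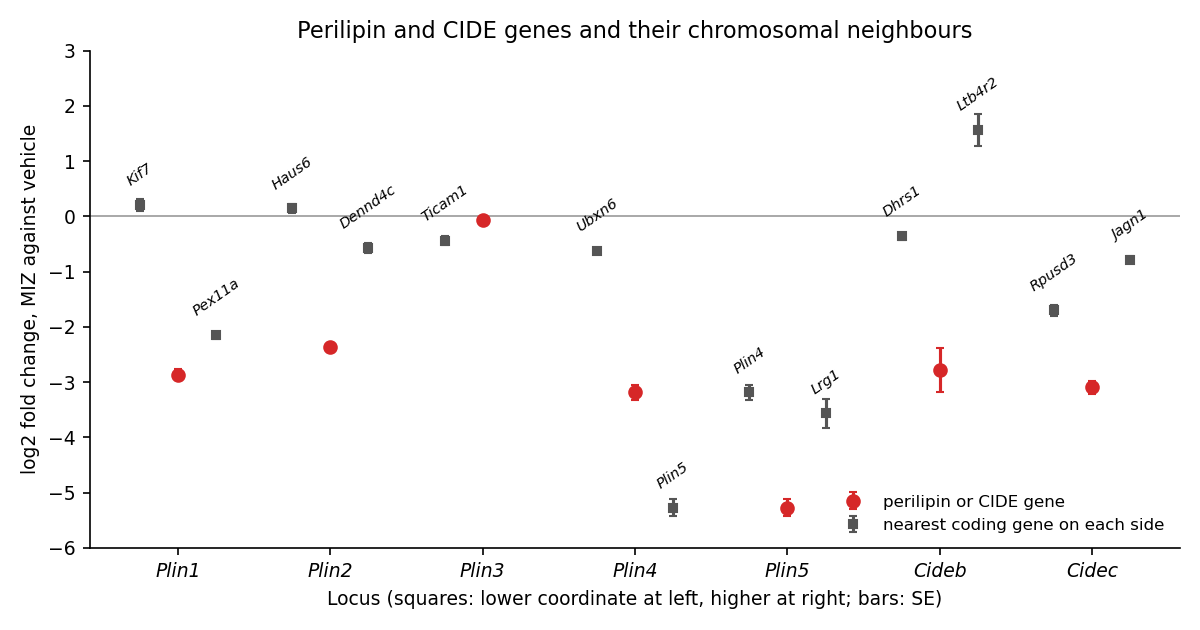
Log2 fold change of MIZ against vehicle for the 7 members with a fold (red) and the nearest non-overlapping protein-coding gene on each side (grey squares; Arrdc5 beside Plin3 missed the filter on low counts and is not drawn), with bars for the SE. Plin4, Plin5 and Lrg1 form a run of genes at -3.19, -5.28 and -3.57, while the neighbours of Plin2 and Cidec lie closer to 0 than the members; Cidea is left out because it had 1 count with MIZ.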

How the data were processed

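RNA from primary mouse SVF cells was rRNA-depleted and sequenced as paired reads. Per the labels and the study's methods, the authors used Trim Galore 0.6.7 for trimming and STAR for alignment to GRCm38; the labels name HTSeq and the methods STAR for counting, and the annotation release and strand setting are not given in the sources used here. The deposited values are raw counts per Ensembl gene. Symbols matched 32235 of 32285 identifiers, and gene models came from GENCODE M21.

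A gene was tested where 3 or more libraries held 5 or more counts, with edgeR 4.0.16 (TMM, quasi-likelihood, one fit of 9 libraries, R 4.3.3), with Benjamini-Hochberg adjustment over 17173 genes. SE is the log2 fold change divided by the root of F. Ratios used exact permutation tests (scipy 1.17.1). Named list genes were the largest changes of MIZ against vehicle per list (up to 3 in the main and 2 in the other direction, at least 5 CPM in a group), plus Pparg; Abhd5 and the thermogenic markers were added after their values were seen. The genes closest to Plin4 are not reported here. Members and lists were chosen with earlier results of these data known. Alternatives were DESeq2 1.42.0, other scalings and filters, a replicate block and leaving out each library.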

Additional observations from a re-analysis of the deposited data

How the results depend on the processing

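Leaving out a library, other scalings and filters, DESeq2 and fitting only the compared libraries kept the number of member calls at 6 to 7 for MIZ against vehicle, 7 to 8 for vehicle against undifferentiated and 6 to 7 for MIZ against undifferentiated cells. The lower numbers came from leaving out any vehicle library, after which Cidea no longer had 5 counts in 3 libraries and was not tested, and from leaving out MIZ replicate 1, after which Cideb against undifferentiated cells had an adjusted p of 0.0509. Calls among the 64 droplet genes stayed between 57 and 60, 59 and 62, and 56 and 60. Replicate numbers did not pair the samples (correlations of same-numbered libraries of -0.04 to 0.06), and with a replicate block the member calls were 7, 8 and 7 and the droplet gene calls 58, 61 and 58.

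Total counts without TMM shifted the median of all genes to 0.16 for MIZ against vehicle and -0.25 for vehicle against undifferentiated cells. There Plin3 was at 0.0671 and Nop9 at 0.0946 for MIZ against vehicle, Dennd4c at -0.0943, Nop9 at -0.122 and Dhrs1 at -0.00774 for vehicle against undifferentiated cells, and Nop9 at -0.0279 for MIZ against undifferentiated cells, all with the sign turned and none past the threshold. For MIZ against undifferentiated cells Ticam1, at -0.02, turned to 0.00963 with DESeq2 and 0.00966 with its size factors in edgeR. Leaving out single libraries gave -0.0429 to 0.00964 for Ticam1, positive without undifferentiated replicate 3 or MIZ replicate 3, and -0.0269 to 0.0539 for Nop9, negative without undifferentiated replicate 1 or MIZ replicate 1. The fitted sign of Cidea in that comparison, from 1 count a group, turned in 3 of the 6 fits that left out 1 library and still tested it, and its adjusted p ranged from 0.327 to 0.949 over those 6.

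Shares within the families depended on the gene length used. With the longest transcript, Plin1 held 38.7% with vehicle, Plin2 72.0%, 44.6% and 52.6% in undifferentiated, vehicle and MIZ cells, Plin3 27.6%, 1.08% and 6.24%, Plin4 0.384%, 13.4% and 8.89%, and Plin5 2.22% with vehicle and 0.348% with MIZ. Among CIDEs Cidea then held 9.67% and Cidec 90.3% with vehicle, and Cideb 0.0881% with MIZ. Without division by length, Plin1 held 39.1% with vehicle and 34.0% with MIZ, Plin2 56.9%, 30.2% and 37.7%, Plin3 42.1% in undifferentiated cells and 1.41% with vehicle, Plin4 0.925%, 27.8% and 19.4%, and Plin5 1.58% with vehicle and 0.262% with MIZ. Cidea then held 6.49% and Cidec 93.5% with vehicle, and Cideb 0.0621% and Cidec 99.93% with MIZ. The direction of each change between vehicle and MIZ named in the text was that of merged exons under both lengths. Depth limits Cideb (14 counts with MIZ) and the undifferentiated levels of Plin1, Plin5, Cidea and Cidec.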
